A study of Mus musculus with 20 samples.

Results

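The effect of 3 weeks of forced treadmill-running on gene expression was measured in the knee articular cartilage of wild-type mice. The samples labelled wildtype were taken, 11 of the 20 in the study, and split by their challenge label into 8 Run and 3 NoRun pools. Each pool held the left-knee cartilage of 2 male C57Bl/6 mice aged 4 to 6 months. Run mice had run 1 hour a day on 5 days a week at 11 m/min up a 5 degree incline, and NoRun mice had not been made to run. The other 9 pools of the study came from Dio2-/- mice, which lack the deiodinase that activates thyroid hormone, and had 6 Run and 3 NoRun pools of 2 mice each. These mice were of the same age range and in generation 6 of a backcross to C57Bl/6, whereas the wild-type mice had been purchased. The Dio2-/- pools entered the fit to estimate the spread and are named below only where they bear on the running effect. Expression was read on Illumina MouseWG-6 v2 arrays, whose 45281 probes each report 1 stretch of a transcript as a fluorescence intensity.

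Articular cartilage is a tissue without vessels, in which chondrocytes hold together a matrix of type II collagen and the proteoglycan aggrecan. Chondrocytes sense compression and shear through their integrins, ion channels and cilia, and loading shifts the balance between making and degrading the matrix. Moderate exercise and overload are known to move this balance in opposite ways. In a bulk sample, fewer cells of a type and less RNA per cell cannot be told apart.

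The placing of the pools on the chips, read from the array identifiers in the labels, limits the comparison. Of the wild-type Run pools, 3 lay on chip 1, 4 on chip 3 and 1 on chip 6, whereas the 3 wild-type NoRun pools lay together on chip 4 and shared it with no wild-type Run pool. Run and chip therefore cannot be told apart within the wild-type samples. The study's methods describe the conditions as dispersed over the chips, which differs from this placing, and every value given by chip rests on the identifiers being right. Chip 4 also held 1 Dio2-/- Run pool (number 35), and its values are given beside the results as the only running sample from the NoRun chip. Median intensity before normalization was 162 to 203 in the Run pools and 208 to 223 in the NoRun pools. Between 19637 and 21386 probes were detected per Run pool, and between 20344 and 20364 per NoRun pool. Normalized log2 values correlated between pools at 0.978 to 0.991 within Run, at 0.982 to 0.993 within NoRun, and at 0.972 to 0.989 between Run and NoRun. The first principal component held 26.0% of the variance and set the Run pools of chips 1 and 6 apart from the Run pools of chip 3, which lay on the side of the NoRun pools. Of the defining cartilage markers, Col2a1 (type II collagen), Acan (aggrecan) and Comp were detected in all 11 pools, while Matn3, Cnmd and Prg4 had no tested probe. Markers of skeletal muscle (Acta1, Ckm), of neutrophils (S100a8, Ngp), of osteoblasts (Bglap), of fat (Adipoq) and of red cell precursors (Alas2) were also detected in all 11 pools.

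A probe was tested when its detection P-value was below 0.05 on at least 3 of the 20 arrays, which left 23148 probes, of which 19569 carried 1 gene symbol, for 12310 genes. Differences are Run minus NoRun in normalized log2 intensity, and a probe was called when its limma P-value, adjusted over all 23148 probes by the method of Benjamini and Hochberg, was below 0.05. By this rule 45 probes differed between Run and NoRun pools, which is 0.194% of those tested. Of these, 16 probes were higher in Run pools (0.0691%) and 29 were lower (0.125%). They carried 38 named genes. With arrays scaled on their medians in place of quantile normalization, 34 probes were called, 17 of them among the 45, and 1 of the 34 was higher in Run pools. The differences ranged in size between 0.48 and 2.47, and 44 of the 45 exceeded 1.5-fold. In 44 of the 45 the Run and NoRun pools did not overlap, which was so for 7.89% of all probes tested. The exception was Smim15. At an unadjusted P-value below 0.05, 6.97% of the probes tested were higher and 6.21% lower, and over all probes 51.7% of the differences were above 0 with a median of 0.01. The spread of the calls over size and P-value is seen in the plot of all probes.

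**Figure D1:**
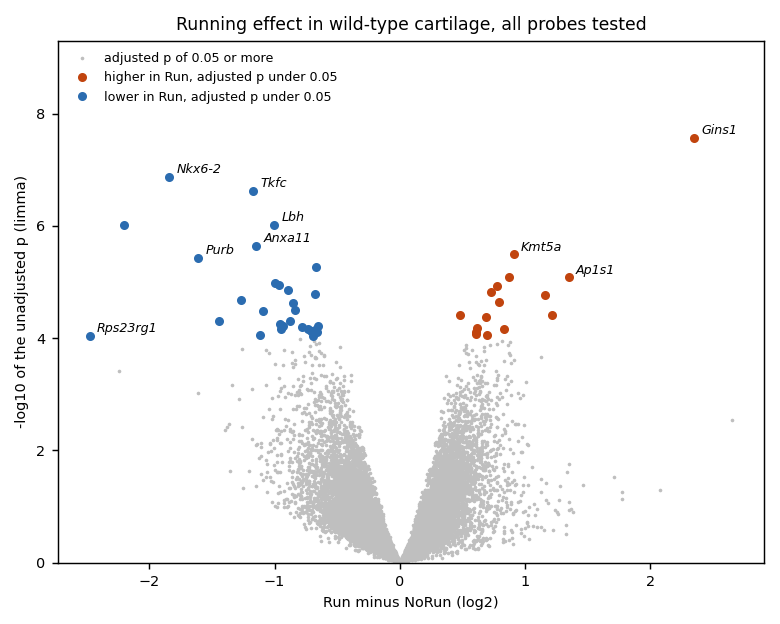
Difference between wild-type Run and NoRun pools (x axis, log2, Run minus NoRun) against the -log10 of the unadjusted limma P-value (y axis) for the 23148 probes tested. The 16 probes higher and 29 lower at an adjusted P-value below 0.05 are coloured, and Gins1 and Nkx6-2 have the smallest P-values on either side.

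The same probes were then set against the chips. Each chip's Run pools share the sign of the overall difference wherever all Run pools lie on 1 side of the NoRun pools, so the sign by chip is no check on chip. In another fit the pools of each chip had a mean of their own. There the Run pools of chip 1 alone called 461 of the 23148 probes against the NoRun pools, 40 of them among the 45. Those of chip 3 alone called 8, with 7 among the 45. The 45 had been chosen with these same pools. With the other wild-type Run pools left out of the 4-group fit, the pools of chip 1 gave 40 calls, 12 of them among the 45, and those of chip 3 gave 3, all among the 45. Between chip 3 and chip 1, both holding only wild-type Run pools, 753 probes differed at an adjusted P-value below 0.05 (3.25%), 692 of them higher on chip 3. The Dio2-/- Run pool of chip 4 lay beyond the range of the 3 wild-type NoRun pools on the Run side for all 45 probes. It was nearer to the wild-type Run mean for 44. For 76.9% of all probes tested, this pool lay on the same side of the wild-type NoRun mean as the wild-type Run mean. The 45 probes had been chosen against the same 3 NoRun pools. The Dio2-/- NoRun pools 17 and 19, on chip 5, were also nearer to the wild-type Run mean, for 43 and 41 of the 45 probes, and pool 16 was nearer to it for 23. These pools had not run, and they differ from the wild-type NoRun pools in both genotype and chip.

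**Figure D2:**
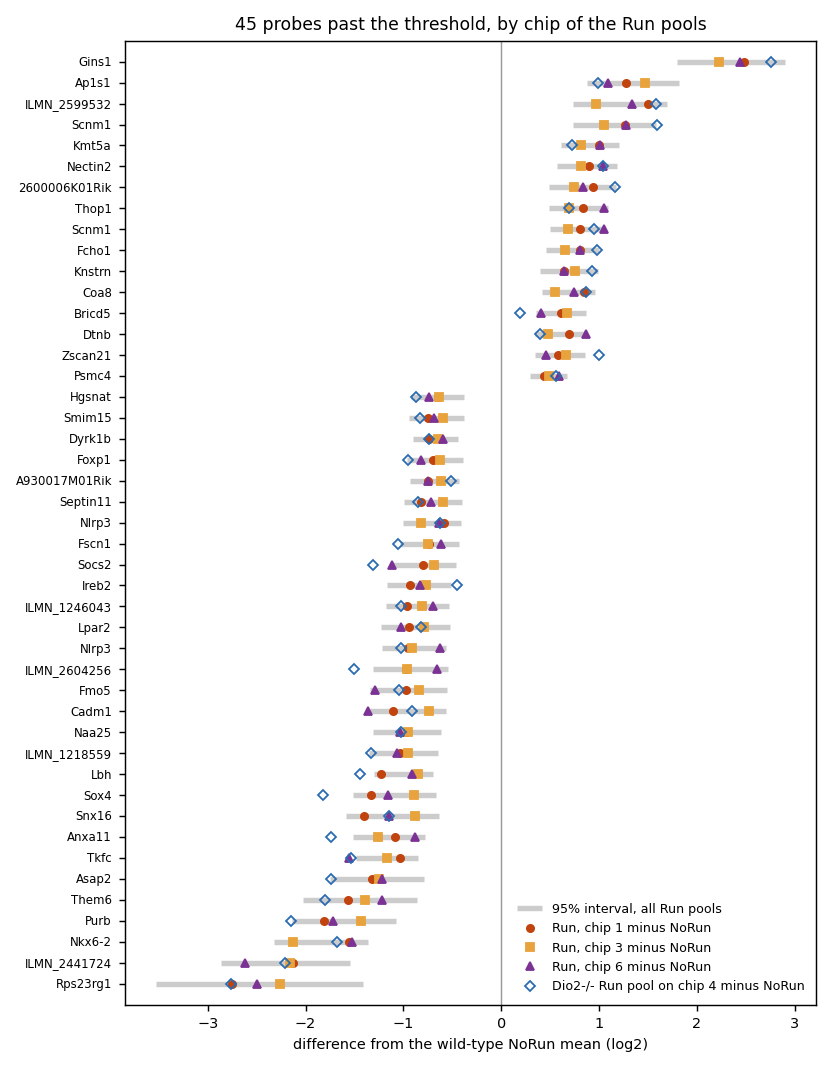
Difference from the wild-type NoRun mean (x axis, log2) for the 45 called probes (y axis, gene symbol, or probe identifier where the annotation gives none), by chip of the Run pools, with the Dio2-/- Run pool of chip 4 as open diamonds and the 95% limma interval over all 8 Run pools as bars. Every marker lies on the same side of 0 as its bar, which for the Run pools follows from groups that do not overlap in 44 of the 45.

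With chip as a random block, 7 probes were called, and all 7 were among the 45. They were Gins1, Nkx6-2, Tkfc, Lbh, Anxa11, Purb and the unnamed probe ILMN_2441724. With chip as a fixed block, which rests on chip 4 and chip 6 where wild-type and Dio2-/- pools met, none of the 45 was called, although 44 kept their sign and Bricd5 did not. The number of calls also moved with single pools. It was 3 without NoRun pool 12, 12 without NoRun pool 14, 12 without NoRun pool 15, 18 to 23 without any 1 of the Run pools 20, 21, 23, 27, 29, 30 and 31, and 132 without Run pool 22. Gins1, Nkx6-2 and Tkfc were called in all 11 of these fits.

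Gins1, a subunit of the GINS complex that fires replication origins together with the MCM helicase, rose most among the genes called higher. It measured 10.18, 10.87 and 11.02 (lowest, median and highest) in the Run pools, against 8.42, 8.50 and 8.46 in the 3 NoRun pools. Every Run pool was above every NoRun pool by more than 1.5 log2 units. The difference was 2.35 ± 0.27 (SE, 8 and 3 pools), or 5.09-fold, with an adjusted P-value of 0.000619 (limma). It was 2.48 for the pools of chip 1, 2.22 for those of chip 3 and 2.45 for that of chip 6, and the Dio2-/- Run pool of chip 4 was 2.76 above the NoRun mean. Gins1 had 1 tested probe, so no other probe of the gene was at hand.

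Of the 12 genes of the replication helicase that were tested, 8 were higher and 4 lower in Run pools, with a median difference of 0.09, and Gins1 was the only one called. The mean of the list was 10.67 to 10.94 in the Run pools and 10.49 to 10.58 in the NoRun pools, with no overlap. Without Gins1 it was 10.65 to 10.96 in the Run pools and 10.68 to 10.78 in the NoRun pools, which overlapped. Mcm5, a helicase subunit, measured 13.36, 13.46 and 13.64 (lowest, median and highest) in the Run pools, against 13.26, 13.09 and 13.30 in the NoRun pools. Its difference of 0.27 ± 0.11 was not called (adjusted P-value 0.306, limma). Gins3, another GINS subunit, differed by 0.40 ± 0.17 (adjusted P-value 0.325, limma). Among 11 mitosis genes, 6 were higher and 5 lower and none was called, with Birc5, the survivin of the chromosomal passenger complex, at 0.43 and Aurka, the Aurora A kinase, at -0.55.

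Kmt5a, the methyltransferase that places a single methyl group on lysine 20 of histone H4, measured 10.40, 10.97 and 11.18 in the Run pools (lowest, median and highest) and 9.82, 9.89 and 10.25 in the NoRun pools. The groups lay close at their edges, with the lowest Run pool just above the highest NoRun pool. The difference was 0.91 ± 0.14 (adjusted P-value 0.0106, limma), and of 3 further Kmt5a probes 1 was higher and 2 were lower, none of them called. Ap1s1, the small subunit of the AP-1 clathrin adaptor, measured 7.63, 7.80 and 8.34 in the Run pools and 6.49, 6.88 and 6.24 in the NoRun pools, a rise of 1.35 ± 0.23 with the groups apart (adjusted P-value 0.0174, limma). Nectin2, a cell adhesion receptor, measured 7.59, 7.90 and 8.17 in the Run pools and 6.92, 7.14 and 6.94 in the NoRun pools, a rise of 0.87 ± 0.15 (adjusted P-value 0.0174, limma). Both genes had further tested probes, all of them higher in Run pools and none called: 0.33 and 0.41 for Ap1s1, and 0.07 and 0.48 for Nectin2. Fcho1, which starts clathrin-coated pits, rose by 0.73.

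Scnm1, a splicing factor, was called by 2 probes, at 1.16 and 0.78, while another of its probes was 0.14 and was not called. Psmc4, an ATPase of the proteasome cap, had the smallest difference of the 45 at 0.48 ± 0.09, and its pools stood apart at 12.48, 12.61 and 12.80 in Run (lowest, median and highest) against 12.21, 12.07 and 12.12 in NoRun. It was the only one of the 19 proteasome genes tested that was called. Of the 19, 11 were higher and 8 lower with a median of 0.02. The groups did not overlap in 4 of the 19, against 7.89% of all probes tested. Thop1, an oligopeptidase, rose by 0.79, and Coa8, a factor of cytochrome c oxidase assembly, by 0.69. Knstrn, a protein of the kinetochore and spindle, rose by 0.70, Dtnb, the beta-dystrobrevin, by 0.60, and Zscan21, a zinc finger protein, by 0.60. 2600006K01Rik rose by 0.83. Bricd5 was detected in 6 of 8 Run pools and in none of the NoRun pools. It was at least 1.12-fold higher in Run pools, a bound set against the lowest detected signal of each array.

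**Figure D3:**
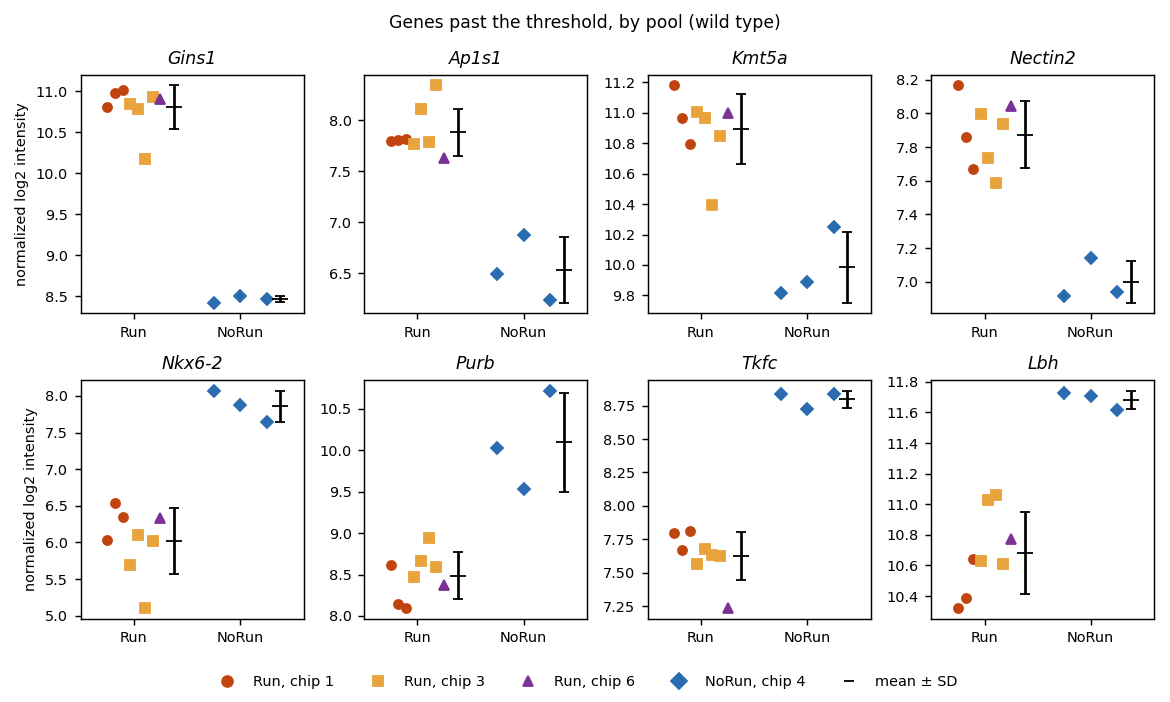
Normalized log2 intensity (y axis) of 8 called genes in each wild-type pool, Run at left and NoRun at right, with marker shape and colour by chip and the mean ± SD of each group in black. The 4 genes of the upper row are higher in every Run pool and the 4 of the lower row lower in every Run pool than in any NoRun pool.

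Of the genes called lower, Nkx6-2 had the smallest P-value. This homeobox transcription factor, best known from the developing nervous system, measured 5.11, 6.07 and 6.54 in the Run pools (lowest, median and highest) and 8.07, 7.87 and 7.64 in the NoRun pools. All Run pools were more than 1 log2 unit below the lowest NoRun pool. The difference was -1.84 ± 0.23 (adjusted P-value 0.00156, limma). In the Dio2-/- pools the same difference was 0.07. Tkfc, the triokinase that phosphorylates glyceraldehyde in fructose breakdown, measured 7.24, 7.65 and 7.81 in the Run pools and 8.83, 8.72 and 8.83 in the NoRun pools, a difference of -1.17 ± 0.15 (adjusted P-value 0.00185, limma). Lbh, a transcription cofactor of limb and heart development, measured 10.32, 10.63 and 11.06 in the Run pools and 11.73, 11.71 and 11.62 in the NoRun pools, a difference of -1.0 ± 0.14 (adjusted P-value 0.00451, limma). The groups were apart for both genes. A second Lbh probe differed by -0.09 and was not called, so the fall of Lbh rests on 1 of its 2 probes.

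Anxa11, a calcium-dependent phospholipid-binding annexin, measured 7.98, 8.28 and 8.54 in the Run pools and 9.65, 9.29 and 9.32 in the NoRun pools, a difference of -1.15 ± 0.17 (adjusted P-value 0.00869, limma). Its second probe differed by -0.30 and was not called. Purb, a single-strand nucleic acid binding repressor of muscle actin genes, measured 8.10, 8.53 and 8.95 in the Run pools and 10.03, 9.54 and 10.72 in the NoRun pools, a difference of -1.61 ± 0.25 (adjusted P-value 0.0107, limma). Its second probe differed by -0.05. Over the 38 genes, 18 had 1 tested probe and 20 had several. Of the 32 other probes of these 20 genes, 23 had the sign of the called probe and 9 the opposite sign, and a second probe was called for 2 genes, Scnm1 and Nlrp3. Dyrk1b, a kinase of quiescent cells, was called at a probe that was detected in no Run pool and in all NoRun pools, at least 1.13-fold lower in Run, while another of its probes was higher in Run pools by 0.53 and was not called.

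Cadm1, an adhesion molecule of the immunoglobulin family, differed by -0.95, and Fscn1, which bundles actin, by -0.73. Septin11, a filament-forming GTPase, differed by -0.69 and Asap2, an Arf GTPase-activating protein, by -1.27. Lpar2, a receptor for lysophosphatidic acid, differed by -0.88 but was detected in 2 of 8 Run pools. Nlrp3, the sensor of an inflammasome, was called by both of its probes. The first differed by -0.89 and was detected in 4 of 8 Run pools, and the second was detected in no Run pool and was at least 1.26-fold lower in Run. Its levels were near background, with 5.18, 5.54 and 5.76 in the Run pools (lowest, median and highest) and 6.74, 5.97 and 6.45 in the NoRun pools at the first probe. Ireb2, the iron regulatory protein that stabilizes transferrin receptor mRNA, differed by -0.84, and Hgsnat, a lysosomal enzyme of heparan sulphate breakdown, by -0.65. Foxp1, a forkhead transcription factor, differed by -0.68, Naa25, the auxiliary subunit of an N-terminal acetyltransferase, by -0.96, Snx16, a sorting nexin of endosomes, by -1.11, and Fmo5, a flavin monooxygenase, by -0.95. Them6 differed by -1.44. Rps23rg1, a mouse retrogene of a ribosomal protein, had the largest fall at -2.47 ± 0.51 and was detected in 1 of 8 Run pools. A930017M01Rik was detected in no Run pool and was at least 1.20-fold lower in Run pools.

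Promoters are shown for 1 gene that was higher and 3 that were lower, chosen from the genes above with an entry in the RefSeq promoter table (GRCm38.p6). Each is the 250 bases before the start of transcription, 5′ to 3′ on the strand of the gene, with matches to CCAAT and to TATAAA, on either strand, in capitals.
Kmt5a, higher in Run pools, chr5:124439680-124439929, + strand, the first of 3 entries of the gene: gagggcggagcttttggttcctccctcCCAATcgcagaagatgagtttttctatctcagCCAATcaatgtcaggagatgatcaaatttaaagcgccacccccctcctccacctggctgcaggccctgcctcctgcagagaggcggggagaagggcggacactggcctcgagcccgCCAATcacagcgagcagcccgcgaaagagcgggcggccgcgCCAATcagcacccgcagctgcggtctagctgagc
Nkx6-2, lower in Run pools, chr7:139582798-139583047, - strand: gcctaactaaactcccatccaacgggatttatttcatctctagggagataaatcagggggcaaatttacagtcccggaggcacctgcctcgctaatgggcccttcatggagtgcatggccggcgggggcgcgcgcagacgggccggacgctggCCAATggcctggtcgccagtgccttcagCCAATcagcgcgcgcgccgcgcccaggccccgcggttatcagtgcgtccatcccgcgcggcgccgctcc
Tkfc, lower in Run pools, chr19:10604259-10604508, - strand: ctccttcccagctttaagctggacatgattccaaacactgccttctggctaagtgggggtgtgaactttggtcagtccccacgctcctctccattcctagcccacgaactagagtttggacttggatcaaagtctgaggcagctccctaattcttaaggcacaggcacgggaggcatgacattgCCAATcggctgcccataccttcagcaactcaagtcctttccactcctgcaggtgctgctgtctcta
Lbh, lower in Run pools, chr17:72918055-72918304, + strand: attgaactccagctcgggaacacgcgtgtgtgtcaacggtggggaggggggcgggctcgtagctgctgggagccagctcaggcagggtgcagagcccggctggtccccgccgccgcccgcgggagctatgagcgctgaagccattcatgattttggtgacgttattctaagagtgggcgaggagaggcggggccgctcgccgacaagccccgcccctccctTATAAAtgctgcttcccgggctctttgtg
CCAAT stood in 11 of the 28 called genes with an entry (39.3%), in 36.2% of the genes tested and in 33.8% of all promoters of this length. TATAAA stood in 3 of the 28 (10.7%), in 7.91% of the genes tested and in 12.4% of all promoters. A match is a description of the letters only.

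Sox4 and Socs2 were the called members of the lists of developmental and cytokine regulators. Sox4, a transcription factor of mesenchymal and osteoblast progenitors, measured 10.27, 10.59 and 11.27 in the Run pools (lowest, median and highest) and 11.91, 11.70 and 11.66 in the NoRun pools. The groups did not overlap and the difference was -1.09 ± 0.20 (adjusted P-value 0.0336, limma). A second, dimmer Sox4 probe differed by -0.07. Socs2, the suppressor of growth hormone signalling, measured 10.70, 11.12 and 11.26 in the Run pools and 11.86, 11.97 and 11.64 in the NoRun pools, a difference of -0.78 ± 0.15 (adjusted P-value 0.0443, limma). Of the 7 suppressors of cytokine signalling tested, 2 were higher and 5 lower, with a median of -0.13, and Socs2 alone was called. In the Dio2-/- pools Sox4 differed by -0.58 and Socs2 by -0.38.

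Calr, the calcium-binding chaperone calreticulin of the endoplasmic reticulum, was examined by itself because the study turned on it. It measured 9.99, 10.84 and 10.95 in the Run pools (lowest, median and highest) and 11.85, 11.34 and 11.21 in the NoRun pools. Every Run pool was below every NoRun pool, by a difference of -0.76 ± 0.24, or 1.69-fold. An exact two-sided permutation test over the 11 pools gave P = 0.00606, the smallest that arrangements of these pools can give. The study had already reported lower Calr after running in wild-type mice from these arrays, so this P-value is no independent support. The test also treats the pools as exchangeable, although the 3 NoRun pools shared 1 chip that held no wild-type Run pool. Groups without overlap were seen in 7.89% of all probes tested. The limma P-value adjusted over all probes was 0.17, so Calr was not called across the array. Without NoRun pool 12 the difference was -0.57 and the exact permutation P-value 0.0667. The Dio2-/- Run pool of chip 4 was 1.61 below the wild-type NoRun mean, at 9.86. The Dio2-/- NoRun pools 16, 17 and 19, which had not run, measured 10.36, 9.81 and 9.95. For Calr, the Dio2-/- Run pool of chip 4 therefore cannot tell running from genotype. Among the 15 chaperones and folding enzymes of the endoplasmic reticulum tested, 8 were higher and 7 lower with a median of 0.10. Hsp90b1, the chaperone GRP94, differed by -0.61 and Pdia4, a disulfide isomerase, by 0.45, and neither was called. Of the 12 regulators of the unfolded protein response, 9 were higher and 3 lower with a median of 0.13 and none called. Their mean was 9.18 to 9.50 in the Run pools and 9.08 to 9.15 in the NoRun pools, with no overlap. Ddit3, the stress transcription factor CHOP, differed by 0.33 and Herpud1, a component of endoplasmic reticulum degradation, by -0.45.

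Other genes of interest to the study were not called. Hmgb2, a chromatin protein of the superficial cartilage zone, measured 12.49, 12.65 and 13.06 in the Run pools and 12.12, 12.26 and 11.67 in the NoRun pools, with no overlap, a difference of 0.69 ± 0.18 (adjusted P-value 0.104, limma). Gapdh, the glycolytic enzyme often used for reference, differed by -0.12 with overlapping groups (adjusted P-value 0.814, limma). Dio2 was detected in 2 Run pools and in no NoRun pool, and its level in wild-type cartilage was at background.

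The genes of the cartilage matrix were lower in Run pools as a list, while none passed the threshold alone. Of the 19 tested, 16 were lower and 3 higher, against 48.3% lower over all probes, with a median difference of -0.43 against 0.01 for all probes. Over 28 alternative fits this median lay between -0.82 and -0.28. Only 12 of the 19 genes were detected in all 11 pools, and 2 were detected in no NoRun pool. The mean of the list was 9.16 to 9.84 in the Run pools and 9.95 to 10.02 in the NoRun pools, with no overlap. Col2a1, the collagen that forms the fibrils of cartilage, measured 12.82, 13.93 and 14.61 in the Run pools (lowest, median and highest) and 15.14, 15.12 and 14.74 in the NoRun pools. The groups did not overlap, but the Run pools spread widely and the difference of -1.11 ± 0.37 was not called (adjusted P-value 0.203, limma). It was -1.54 on chip 1, -0.92 on chip 3 and -0.57 on chip 6. Acan measured 10.04, 10.62 and 10.69 in the Run pools and 11.05, 10.89 and 11.26 in the NoRun pools, a difference of -0.60 ± 0.23 (adjusted P-value 0.263, limma). Its second probe differed by -0.63 with overlapping groups. Col27a1, a collagen of developing cartilage, differed by -0.68 without overlap, and Col11a1, a collagen of the same fibrils as Col2a1, by -0.60 with overlap. Comp, a matrix protein that bridges collagen fibrils, differed by -0.28.

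The same direction was seen in neighbouring lists. All 12 fibrillar and basement membrane collagens were lower, with a median of -0.52, which lay between -1.29 and -0.38 over the 28 alternatives, and none was called. Their mean was 9.93 to 10.68 in the Run pools and 10.81 to 11.11 in the NoRun pools, with no overlap. Col1a1, the main collagen of bone and tendon, differed by -0.61, Col1a2, its partner chain, by -1.13 and Col3a1, a collagen of loose connective tissue, by -1.03, each with overlapping groups. For Col1a2 the difference was -2.11 on chip 1 and -0.34 on chip 3. All 7 small leucine-rich proteoglycans were lower (median -0.33), among them Dcn, decorin, at -0.43. All 7 chondrocyte transcription factors and receptors were lower (median -0.35), with Sox9, the master regulator of the chondrocyte, at -0.35 and overlapping groups. Of the 8 genes of hypertrophic chondrocytes, 7 were lower (median -0.43), with Alpl, the mineralizing phosphatase, at -0.66 and Col10a1 at -0.88, and Ihh was higher at 0.41. None of these genes was called. Among 14 matrix proteases and inhibitors, 7 were higher and 7 lower, with a median of -0.04, and Timp2, an inhibitor of metalloproteinases, was lower at -0.58 without overlap.

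**Figure D4:**
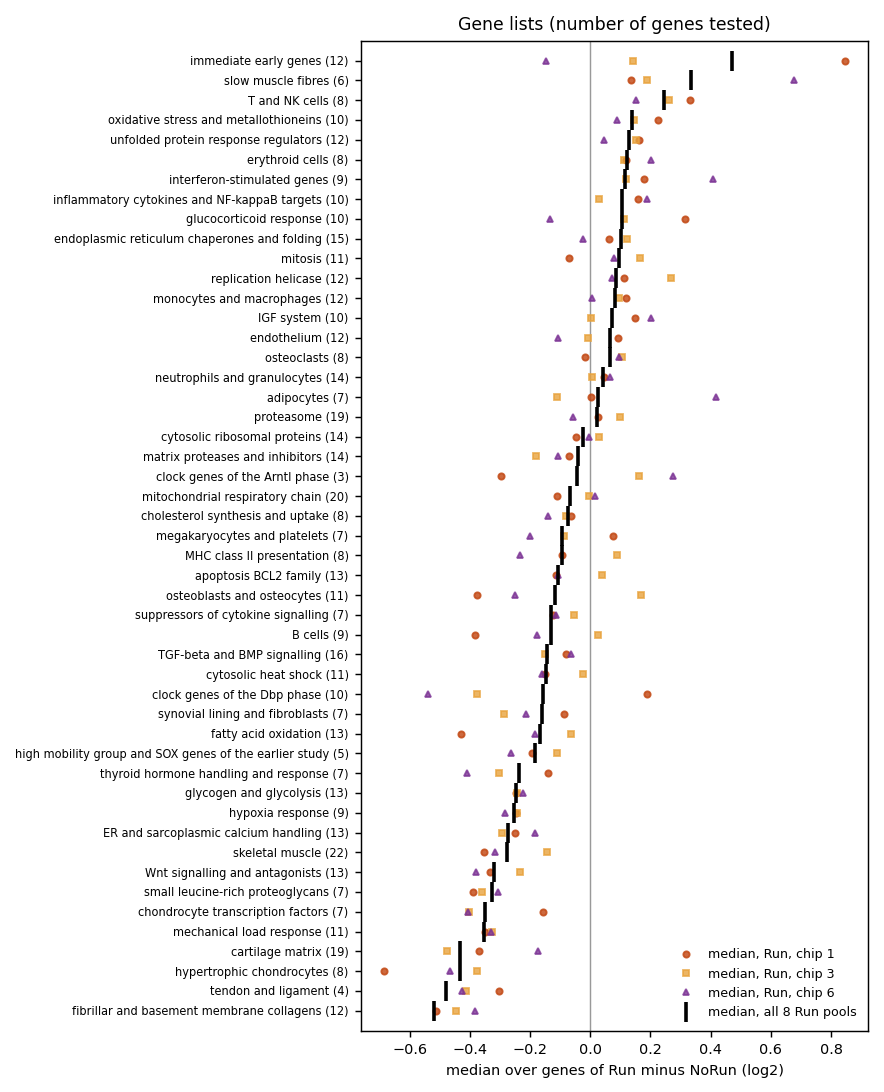
Median over the tested genes of each list (y axis, number of genes in brackets) of the difference between wild-type Run and NoRun pools (x axis, log2, Run minus NoRun), for all 8 Run pools (black bar) and for the Run pools of each chip (coloured markers). Collagen, tendon, hypertrophic and cartilage matrix lists have the lowest medians over the 8 Run pools and lie below 0 on each of the 3 chips, while the median of the immediate early genes ranges between -0.15 on chip 6 and 0.85 on chip 1.

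RNA of other tissues moved in part alongside these lists, and its share in the results was not tested. Of 22 skeletal muscle genes, 21 were lower in Run pools with a median of -0.27. Over the 28 alternatives this median lay between -1.43 and -0.12. The mean of these genes was 12.73 to 14.03 in the Run pools and 13.10 to 13.77 in the NoRun pools, with overlap. Of the 6 genes of slow muscle fibres, 4 were higher and 2 lower, with a median of 0.34, which lay between 0.12 and 0.48 over the 28 alternatives, and none was called. Their mean was 8.91 to 9.86 in the Run pools and 9.09 to 9.57 in the NoRun pools, with overlap. Of 4 tendon and ligament genes, 3 were lower, with a median of -0.48 and a mean of 9.56 to 10.14 in the Run pools against 10.13 to 10.35 in the NoRun pools. For osteoblasts and osteocytes 7 of 11 were lower (median -0.12). Neutrophil genes had a median of 0.04, which lay between -0.01 and 0.95 over the 28 alternatives. Their mean was 14.79 to 15.04 in the Run pools against 14.89 to 14.96 in the NoRun pools. Of 8 genes of T and NK cells, 7 were higher (median 0.25), with means of 8.35 to 8.71 in the Run pools and 8.18 to 8.34 in the NoRun pools and no overlap. The erythroid list did not overlap either, at 12.70 to 13.00 in Run and 12.63 to 12.68 in NoRun. Cd3e, the T cell receptor subunit, differed by 0.86 and Gata1, the erythroid transcription factor, by 0.52, and neither was called. Of all 49 lists, 7 had means that did not overlap between the groups, 4 higher and 3 lower in Run pools, beside 7.89% of single probes. Without their 1 called gene, the replication helicase list (Gins1) and the list of high mobility group and SOX genes (Sox4) overlapped, which left 5, a check added after seeing the data.

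Genes that respond to load and growth factors gave no calls. Of 11 genes of the response to mechanical load, 10 were lower in Run pools, with a median of -0.35, among them the stretch-activated channel Piezo1 at -0.32, the channel Trpv4 at -0.35, Yap1, a transcriptional coactivator of the Hippo pathway, at -0.45 and Ankrd1, one of its targets, at -0.84. Of 13 genes of Wnt signalling, 11 were lower (median -0.32), with the antagonist Frzb at -0.41. Of 16 genes of TGF-beta and BMP signalling, 11 were lower (median -0.14). In the IGF system 7 of 10 were higher (median 0.07), and 2 binding proteins moved apart. Igfbp4 measured 13.29, 13.41 and 13.74 in the Run pools (lowest, median and highest) and 12.85, 13.07 and 12.99 in the NoRun pools, a difference of 0.50 ± 0.15 (adjusted P-value 0.169, limma). Igfbp5 measured 13.61, 13.87 and 14.29 in the Run pools and 14.41, 14.35 and 15.003 in the NoRun pools, a difference of -0.73 ± 0.25 (adjusted P-value 0.208, limma). Neither pair of groups overlapped.

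The immediate early genes, transcription factors switched on within minutes by growth factors, stretch or handling, had medians that ranged widely over the chips, which hold different mice. Of 12 tested, 10 were higher in Run pools with a median of 0.47, but the median was 0.85 for the Run pools of chip 1, 0.14 for those of chip 3 and -0.15 for that of chip 6. Fosb measured 5.53, 7.68 and 9.27 in the Run pools and 6.06, 5.23 and 7.03 in the NoRun pools, with the Run pools spread widely and overlapping the NoRun pools. Its difference was 2.57 on chip 1, 0.84 on chip 3 and -0.13 on chip 6. Cxcl1, a neutrophil-attracting chemokine, differed by 1.17 ± 0.52, with 2.08 on chip 1 and 0.57 on chip 3. Dbp, a clock-controlled transcription factor, differed by 0.15 on chip 1 and by -1.15 on chip 3. None of these genes was called, and between chip 3 and chip 1 the adjusted P-values were 0.328 for Fosb, 0.157 for Cxcl1 and 0.266 for Dbp (limma).

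**Figure D5:**
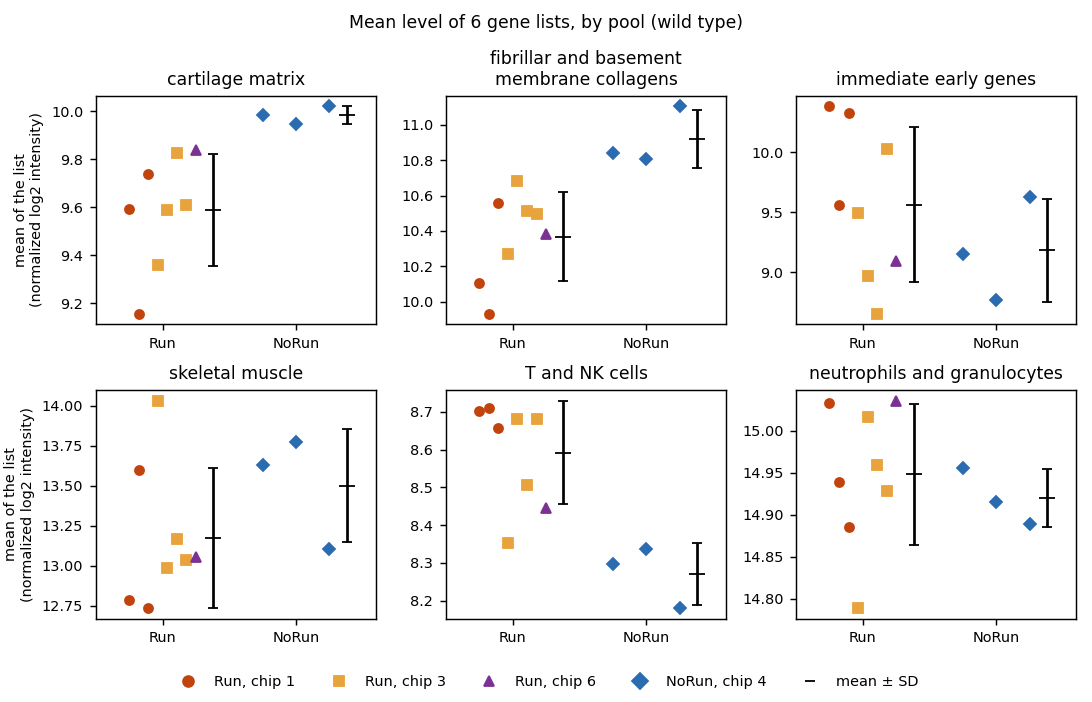
Mean normalized log2 intensity (y axis) of the tested genes of 6 lists in each wild-type pool, Run at left and NoRun at right, with marker shape and colour by chip and the mean ± SD of each group in black. Run pools lie below all NoRun pools for the cartilage matrix and collagen lists and above them for T and NK cells, and overlap them for the other 3.

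Among regulators of cell death, Bbc3, the BH3-only protein PUMA, measured 8.90, 9.22 and 9.50 in the Run pools (lowest, median and highest) and 8.41, 8.24 and 8.73 in the NoRun pools, a difference of 0.77 ± 0.16 that just missed the threshold (adjusted P-value 0.0562, limma). Bak1, the pore-forming relative of Bax, differed by -0.81 ± 0.21 (adjusted P-value 0.102, limma). Of the 13 genes of the BCL2 family, 4 were higher and 9 lower, with a median of -0.11. Pgk1, a glycolytic kinase, differed by -0.73, and 11 of 13 genes of glycogen and glycolysis were lower (median -0.25). Large differences also came from transcripts of the mitochondrial genome, a group formed after their values were seen. COX2 measured 10.35, 11.16 and 12.91 in the Run pools and 13.60, 13.58 and 13.70 in the NoRun pools, a difference of -2.24 ± 0.53 (adjusted P-value 0.0812, limma). ND1 differed by -1.61 without overlap. Of 8 such probes 7 were lower and none was called. CYTB and ND4 measured 15.59 to 16.06 in every wild-type pool, where the highest value of any probe was 16.15. The COX2 difference was -3.02 on chip 1 and -1.48 on chip 3.

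The running effect was also set against that of the Dio2-/- pools, where 6 Run pools were compared with 3 NoRun pools. These NoRun pools lay together on chip 5, which held no Run pool. The Dio2-/- Run pools lay on chips 2, 4 and 6. Run and chip therefore cannot be told apart within the Dio2-/- pools either, nor in the difference between the genotypes. Of the 45 probes, 40 had the same sign there, against 68.5% of all probes, and none was called in the Dio2-/- pools by limma, where 15 of the 45 had an unadjusted P-value below 0.05. No probe was called for the difference of the running effect between the genotypes (0%), and the smallest adjusted P-value was 0.315 (limma), while 1187 probes (5.13%) had an unadjusted P-value below 0.05. Leaving out Dio2-/- NoRun pool 16 and Dio2-/- Run pool 24 gave 13 such calls. Over all probes the running differences of the genotypes had a Pearson correlation of 0.569, and of 0.358 without Dio2-/- NoRun pool 16. For Gins1 the difference was 1.04 in Dio2-/- pools and 2.35 in wild-type pools, and for Nkx6-2 0.07 and -1.84. Dio2-/- NoRun pool 16 measured 8.79 for Gins1, near the wild-type NoRun pools, and pools 17 and 19 measured 10.38 and 10.29.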

How the data were processed

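Samples were grouped by genotype and challenge as the labels give them, and the array positions and chips came from the labels. Linear, not normalized intensities of each probe had been deposited by the authors, with a detection P-value for each, and a second table of log2 values normalized by the authors, used here as an alternative. GenomeStudio is named in the submitters' processing notes. The sources used here do not give its version or any background step. The study's methods say that replicate arrays on a second chip were taken off, and these were not analysed here.

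Background correction and quantile normalization used the neqc function (limma 3.58.1, R 4.3.3) with an offset of 16. A fit of the 4 groups over all 20 arrays with empirical Bayes gave differences, standard errors and P-values. The standard errors rest on the spread of pools within the 4 groups, and the number of pools limits the precision. For the wild-type NoRun pools, which shared 1 chip, they hold no spread between chips. Fits were tested on simulated data. Probes were named from the platform annotation: 34885 of 45281 had 1 symbol, 18 several and 10378 none. Bounds ("at least") set the mean of the group with signal against the other group. On each array of the other group, the higher of the measured value and the lowest signal with a detection P-value below 0.05 was taken. Named genes were, in each direction, the 15 with the smallest P-value and the 8 with the largest difference at an unadjusted P-value below 0.01 and detection in every pool of the higher group, together with Calr, Dio2, Acan, Gapdh, Hmgb2, Sox4 and Socs2 and up to 3 members of each list; others were added after their values were seen. The members and the 49 gene lists were chosen with earlier results of these data known, and each listed gene was read at its brightest tested probe. Alternatives were other normalizations, filters, array sets, chip and position terms, array weights and leaving out each pool.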

Additional observations from a re-analysis of the deposited data

Results flagged for a closer look

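In each of 93 probes named above and 49 list means, the highest and the lowest of the 8 wild-type Run pools were compared with the other 7 by Dixon's ratio, which chance exceeds in about 1 in 20 groups. Of the probes, 7 had a pool that stood apart, and of the list means none. Run pool 22 was the one for 4 of them. It measured 10.18 for Gins1, where the other Run pools lay between 10.78 and 11.02, and 6.46 for 1 of the Scnm1 probes, where the others lay between 7.13 and 7.67. It measured 11.08 for Smim15, against 10.31 to 10.66 in the others, and 14.29 for Igfbp5, against 13.61 to 13.93. For Gins1, Scnm1, Smim15 and Igfbp5 this pool was the nearest to the NoRun pools. Run pool 23 measured 7.24 for Tkfc, against 7.56 to 7.81 in the others. Run pool 30 measured 10.85 for Alpl, against 11.34 to 11.73. Run pool 31 measured 9.99 for Calr, against 10.60 to 10.95.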

How the results depend on the processing

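The count of 45 probes was 148 without background correction, 88 with an offset of 50, 70 with cyclic loess, 177 on the authors' normalized values and 95 over probes detected on all 20 arrays. It was 390 with the wild-type arrays alone, 910 without Dio2-/- NoRun pool 16 and Dio2-/- Run pool 24, and 2071 with array weights, whose estimation did not converge. It was 7 with chip as a random block and 8 with chip as a fixed block, none of the 8 among the 45, and 40 when the Run pools of chip 1 alone, and 3 when those of chip 3 alone, were kept in the 4-group fit. Leaving out 1 pool gave 3 to 132. For the difference of the running effect between genotypes, 0 calls became 1 on the authors' values, 13 without the 2 Dio2-/- pools, 827 with array weights and 1 with the Run pools of chip 3, and 0 to 1 without 1 pool. The Calr difference was -0.98 with the Run pools of chip 1 (exact permutation P = 0.1, the smallest possible there) and -0.89 to -0.57 without 1 pool. The chip 3 minus chip 1 count of 753 was 492 with median scaling and 1636 with array weights. Of 1372 list medians over the alternatives, 67 moved by at least the SD of the list mean over the Run pools. With chip as a fixed block 37 of these moves arose. The cause of these shifts was not tested.

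For probes named by P-value, size of difference or the study, and not those named only as list members, 1353 values were compared. Of these, 305 lost their call with the sign kept, 44 gained a call and 8 changed sign. Bricd5 was -0.10 with chip as a fixed block. Dio2, at background, was -0.082 with array weights, -0.24 with chip as a fixed block, -0.064 with the Run pools of chip 1 and -0.13 to 0.13 without 1 pool, and the second Sox4 probe was -0.21 to 0.069 without 1 pool. The study describes running and non-running mice as littermates that shared cages, but the labels give no litter or cage. No paired analysis was therefore possible.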
